A study of Mus musculus with 15 samples.

Results

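Keratins are the intermediate filament proteins of epithelial cells, and 6 of them were followed here in microdissected mouse lung: Krt7, Krt8, Krt18 and Krt19, which are typical of simple, single-layered epithelium, and Krt5 and Krt14, which are typical of basal cells. Every probe set that the platform annotation gives to one of these 6 symbols was taken, which gave 10 of the 45037 probe sets that are not array controls, for 6 of 18193 genes. Krt8 and Krt14 had 3 probe sets each and the other genes had 1 each. All mice were K-RasG12V knock-in animals, whose oncogenic allele carries a colour marker, and cells were captured by laser from frozen lung sections 3 months after Cre had been delivered by adenovirus. Normal cells (8 arrays) came from the lung sections that held the lesions (7 arrays of about 500 cells each), so they too come from infected, allele-carrying animals. The lesions were labelled H1 (3 arrays, replicates 2, 3 and 4) or H2 (4 arrays, replicates 1, 5, 6 and 7). The arrays are titled biological replicates. For the basis of the H1 and H2 labels, the number and age of the mice, the promoter behind Cre and which captures share a mouse, the entry is "not given in the sources used here". Had expression values set the labels, a difference between H1 and H2 would be no independent evidence, and where captures share a mouse, p-values over arrays are too small.

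A keratin filament is built from pairs of 1 type II chain (Krt7, Krt8 and Krt5 here) and 1 type I chain (Krt18, Krt19 and Krt14), and unpaired chains are degraded. Krt8 with Krt18 is the principal pair of simple epithelium, including the alveolar type 2 cell, which makes surfactant. Krt7 and Krt19 are further simple keratins of alveolar and airway lining, and Krt5 with Krt14 marks the basal cells of the trachea and large airways. In the mouse, alveolar type 2 cells that turn into type 1 cells pass through a state known for high Krt8.

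The promoters of Krt8 and Krt18 are shown because these were the keratins that rose, and that of Krt7 because its values went the same way without passing the test. The sequences are RefSeq's, of build GRCm38.p6, from 250 bases before to 50 bases after the annotated start, and 5 of the 6 genes had one. Krt8 is at chr15:102004293-102004592 on the minus strand, Krt18 at chr15:102027966-102028265 on the plus strand and Krt7 at chr15:101412153-101412452 on the plus strand. Capitals mark every match, on either strand, to the words TATAAA (the TATA box), GGGCGG (the GC box), TGANTCA (the AP-1 word), CCAAT (the CCAAT box) and GGAAG (a core of ETS sites).
Krt8: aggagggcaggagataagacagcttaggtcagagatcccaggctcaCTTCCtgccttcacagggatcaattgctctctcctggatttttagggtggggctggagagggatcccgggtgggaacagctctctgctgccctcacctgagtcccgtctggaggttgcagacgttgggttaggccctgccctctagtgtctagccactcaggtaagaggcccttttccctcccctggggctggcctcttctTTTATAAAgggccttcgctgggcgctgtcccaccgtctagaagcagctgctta
Krt18: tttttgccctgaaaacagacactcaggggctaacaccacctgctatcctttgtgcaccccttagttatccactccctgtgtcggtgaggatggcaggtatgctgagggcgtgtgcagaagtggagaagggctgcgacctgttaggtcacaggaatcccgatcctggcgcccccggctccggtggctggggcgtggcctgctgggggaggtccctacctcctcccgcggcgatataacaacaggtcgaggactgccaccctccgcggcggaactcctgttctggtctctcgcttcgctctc
Krt7: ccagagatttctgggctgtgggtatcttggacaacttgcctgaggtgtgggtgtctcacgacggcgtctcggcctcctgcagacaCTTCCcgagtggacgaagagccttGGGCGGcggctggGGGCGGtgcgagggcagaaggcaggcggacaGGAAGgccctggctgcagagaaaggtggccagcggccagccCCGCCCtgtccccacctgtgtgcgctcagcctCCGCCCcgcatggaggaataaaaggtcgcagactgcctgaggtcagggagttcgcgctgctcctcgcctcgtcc
In Krt8 the word TATAAA was found on both strands, as 2 matches that overlap each other at the annotated start, and GGAAG was found once. None of the 5 words was found in the window of Krt18. Krt7 held GGGCGG 4 times and GGAAG 2 times. Krt5 and Krt14 held none of them. Among 32851 promoter windows of the same length, 13.6% held TATAAA, 35.7% GGGCGG, 7.81% TGANTCA, 37.4% CCAAT and 71.4% GGAAG, so these matches are a description only. Krt8 and Krt18 are neighbours on chromosome 15, with 2 predicted genes (Gm36026 and Gm41404) listed between them, although one is a type II and the other a type I keratin. Krt7 and Krt5 are also on chromosome 15, and Krt19 and Krt14 are on chromosome 11.

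Values are log2 signals, on which a step of 1 is a doubling. Levels of different genes are not comparable on such arrays, so only differences between groups are read, also where 1 signal is subtracted from another within an array. Group values are means ± SD, and ± after a difference is its standard error (SE). Each gene was tested with limma over all 18193 genes and called at a Benjamini-Hochberg adjusted p under 0.05; where a gene had several probe sets, the one with the highest mean stood for it. The median of all probe set means, 3.99, serves as a mark below which a value is near the background.

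Krt8, the type II partner of the principal pair, was high in H2 lesions. In normal cells its signal ran from 3.36 through a median of 4.40 to 6.70. The H1 arrays read 5.36, 5.34 and 6.34, and the H2 arrays read 7.03, 7.85, 7.80 and 7.42. On this probe set, the brightest of Krt8, every H2 array thus lay above every normal and every H1 array. All H1 values on it lay within the normal range, between 5.34 and 6.34. Krt8 rose in H2 by 2.83 ± 0.48, or 7.10-fold, from 4.70 ± 1.06 (n = 8) to 7.53 ± 0.38 (n = 4; limma adjusted p = 0.00753). In H1 the difference from normal cells was 0.98 ± 0.53 (limma adjusted p = 0.997), with a 95% interval from -0.15 to 2.10. Over all lesions it was 2.04 ± 0.50 (limma adjusted p = 0.0928), which missed the threshold. It passed there without normal replicate 3 (2.32, adjusted p = 0.0269 by limma), the normal array with the highest Krt8, and without H1 replicate 2 (2.26, adjusted p = 0.0367).

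The other 2 probe sets of Krt8 moved with it. Both carry the suffix x_at, which Affymetrix gives to probe sets that may also bind related transcripts. The probe set 1435989_x_at differed by 2.52 ± 0.45 between H2 and normal cells (adjusted p = 0.0127 by limma over all 45037 probe sets) and 1423691_x_at by 2.40 ± 0.45 (adjusted p = 0.0155). In that fit the first probe set, 1420647_a_at, had an adjusted p of 0.00963. The H2 arrays lay above the normal arrays for all 3. The normal mean of 1423691_x_at, 3.31, was below 3.99 and so near the background. With the single probe set of Krt18, 4 of the 10 keratin probe sets were called higher in H2, against 1.7% of all probe sets. The 3 of Krt8 measure the same gene, so these 4 are not independent. In H1 the differences of the 3 probe sets were 0.98, 0.96 and 1.28, none of them called. On 1435989_x_at, H1 replicate 4, at 6.57, lay above the highest normal array, at 6.22, and above H2 replicate 1, at 6.36.

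Krt18, the type I partner, was also high in H2. Its signal in normal cells ran from 3.70 through 6.37 to 7.21. It read 5.91, 7.40 and 8.00 in H1 and 7.91, 8.35, 8.48 and 8.82 in H2. The H2 arrays lay above all normal arrays, and 2 of the 3 H1 arrays did so too, while H1 replicate 2 stayed inside the normal range. Krt18 rose in H2 by 2.33 ± 0.57, or 5.04-fold, from 6.06 ± 1.21 (n = 8) to 8.39 ± 0.38 (n = 4; limma adjusted p = 0.0367). The H1 difference was 1.04 ± 0.63 (adjusted p = 0.997), with a 95% interval from -0.30 to 2.38, and that over all lesions 1.78 ± 0.52 (adjusted p = 0.163). Without H1 replicate 2 the difference over all lesions was 2.10 and passed limma (adjusted p = 0.0407). Krt18 kept its H2 call in 7 of 15 limma fits that left out 1 array (adjusted p from 0.021 to 0.124), and Krt8 in all 15 (0.000918 to 0.0354). Krt18 lost it without any 1 of the H2 replicates 1 (adjusted p = 0.0546), 5 (0.0802), 6 (0.101) and 7 (0.124), normal replicates 5 (0.0618), 7 (0.0685) and 8 (0.0647), or H1 replicate 3 (0.0502).

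In H2 against normal cells, 2 of the 6 keratins were called, both higher; of all genes, 2.89% were called higher and 3.38% in either direction. The H2 values of both lay wholly above the normal values, as did those of 2.7% of all genes, and 3.79% did not overlap in either direction. Krt7 joined them at an unadjusted p under 0.05, where 21.4% of all genes stood. In H1 against normal cells 0 of the 6 were called by limma, where the background was 0.011%, and 0 had an unadjusted p under 0.05 (4.23% of genes) or values clear of the normal range (1.4%). In all lesions against normal cells 0 were called by limma (background 0.291%), and 2, Krt8 and Krt18, had an unadjusted p under 0.05 (12.8% of genes), while none was free of overlap (0.225% of genes were). Bulk captures cannot tell more keratin-bearing cells from more keratin RNA per cell.

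Krt7, the second type II simple keratin, had values in H2 that lay at the upper end of the normal range. Normal cells ran from 3.96 through 5.30 to 6.58, H1 read 5.20, 5.66 and 5.52, and H2 read 6.25, 6.80, 6.34 and 6.50. Only 1 H2 array, replicate 5, exceeded the highest normal array, while all 4 exceeded the H1 arrays. The H2 difference was 1.07 ± 0.38 and did not pass (limma adjusted p = 0.126, unadjusted 0.0128). Leaving out normal replicate 3, which had the highest Krt7 of the normal arrays, moved it past the threshold (1.24, adjusted p = 0.0418), as did array weights (1.16, adjusted p = 0.0224). In H1 the level was 5.46 ± 0.23 (n = 3) against 5.40 ± 0.86 (n = 8) in normal cells, a difference of 0.06 ± 0.42 with a 95% interval from -0.84 to 0.95.

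Krt19, the smallest type I keratin and the simple keratin without a tail domain, did not move past the normal range in any lesion array. Its signal ran from 3.54 through 4.04 to 5.65 in normal cells. H1 read 4.07, 4.53 and 4.89, and H2 read 4.44, 4.42, 4.69 and 4.76. All lesion arrays fell inside the normal range, whose top was set by normal replicate 3 alone, the next normal array being at 4.50. The differences were 0.31 ± 0.31 in H2 (limma adjusted p = 0.583; 95% interval -0.34 to 0.96) and 0.23 ± 0.34 in H1 (adjusted p = 0.997; -0.49 to 0.95). A change in signal of the size fitted for Krt8 in H2 lies outside both intervals. The normal median of Krt19, 4.04, was close to the background mark given above, and its lowest normal array, at 3.54, lay below that mark. The intervals therefore bound the signal of its single probe set. How far that signal follows Krt19 RNA at such a level was not tested.

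**Figure D1:**
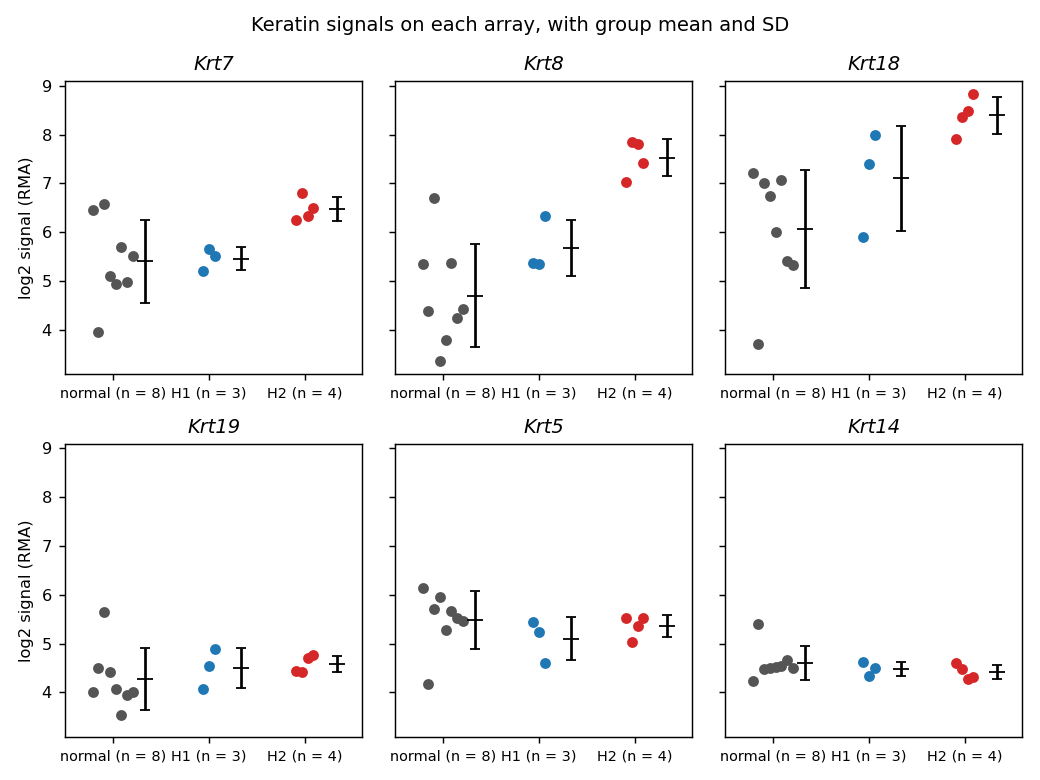
Log2 signal of each keratin on every array, with points for arrays, a horizontal mark for the group mean and a bar for the SD, for 8 normal, 3 H1 and 4 H2 arrays. The H2 arrays lie above all normal arrays for Krt8 and Krt18, at the upper end of the normal range for Krt7, and inside that range for Krt19 and Krt14 and for Krt5.

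The basal cell pair did not pass any comparison. Krt5 ran from 4.18 through 5.60 to 6.14 in normal cells, read 5.45, 5.24 and 4.60 in H1, and read 5.53, 5.04, 5.35 and 5.52 in H2. The lesion arrays all lay inside the normal range. The differences from normal cells were -0.13 ± 0.30 in H2 (limma adjusted p = 0.84; 95% interval -0.76 to 0.50) and -0.39 ± 0.33 in H1 (adjusted p = 0.997; -1.09 to 0.31). Krt14 lay between 4.23 and 5.40 in normal cells on its brightest probe set, with 4.62, 4.33 and 4.50 in H1 and 4.59, 4.48, 4.27 and 4.32 in H2. Its H2 difference was -0.19 ± 0.20 (limma adjusted p = 0.611). The other 2 probe sets of Krt14 had means between 3.24 and 3.51 in every group, near the background, and differences in H2 of -0.17 and -0.19. A further probe set, annotated to both Krt17 and Krt14, was left out of these counts; it averaged 3.77 ± 0.35 for normal cells (n = 8), 3.50 ± 0.12 for H1 (n = 3) and 4.12 ± 0.69 for H2 (n = 4).

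**Figure D2:**
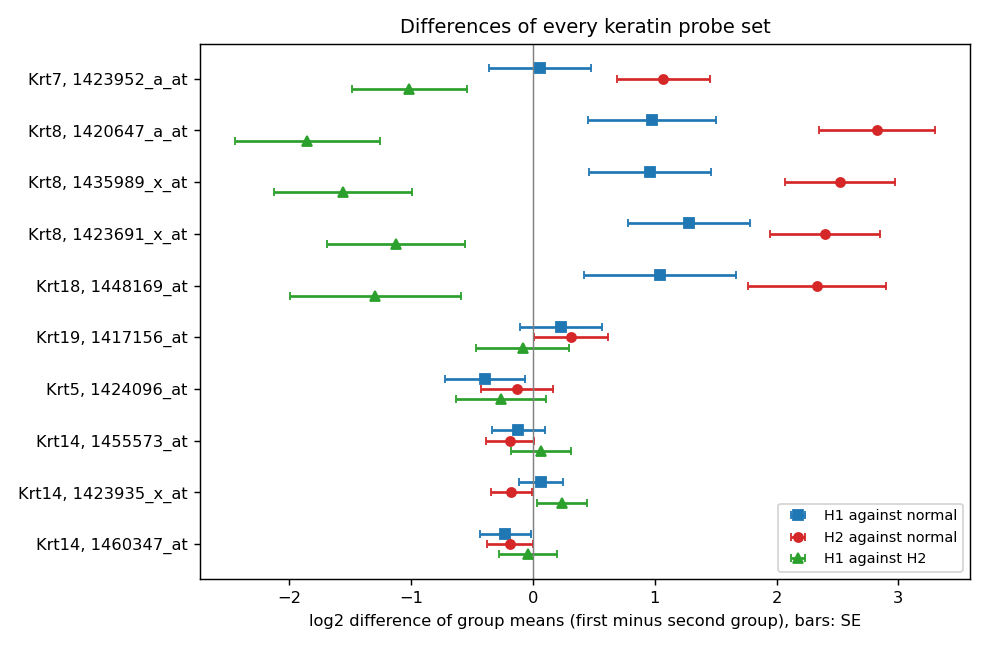
Log2 difference of group means for each of the 10 keratin probe sets in 3 comparisons, with the SE of the fit as bars; positive values are higher in the first group named. The 3 probe sets of Krt8 and the 1 of Krt18 lie between 2.33 and 2.83 in H2 against normal cells, and those of Krt19, Krt5 and Krt14 lie near 0.

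H1 was set against H2 to ask whether the lesion subtypes differ in keratins. Krt8 was at 5.68 ± 0.57 (n = 3) in H1 and 7.53 ± 0.38 (n = 4) in H2, a difference of -1.85 ± 0.60 (limma adjusted p = 0.319, unadjusted 0.00709). Krt7 differed by -1.01 ± 0.48 (adjusted p = 0.405, unadjusted 0.0494) and Krt18 by -1.29 ± 0.71 (adjusted p = 0.463). The H1 and H2 values did not overlap for 2 of the 6 genes, Krt8 and Krt7, both lower in H1. Over all genes 18.2% did not overlap and 10.1% were lower in H1 in this way. For Krt8 this holds for the probe set that stood for the gene. On 1435989_x_at the subtypes overlapped, with H1 replicate 4 at 6.57 and H2 replicate 1 at 6.36. Differences for Krt19, Krt5 and Krt14 were between -0.26 and 0.07. None of the 6 was called by limma in this comparison, 2 had an unadjusted p under 0.05 (12.3% of genes), and 1 of all genes was called (0.0055%). A call in H2 and none in H1 is therefore no test that the subtypes differ.

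The spread of values on an array moved with these keratins. The SD of gene values averaged 1.38 ± 0.18 on normal arrays (n = 8), 1.42 ± 0.10 on H1 arrays (n = 3) and 1.64 ± 0.12 on H2 arrays (n = 4). Over the 8 normal arrays alone, Pearson's r with this spread was 0.87 for Krt7 (exact permutation p = 0.00685, adjusted over 4 genes 0.0137), 0.85 for Krt18 (exact p = 0.00263, adjusted 0.0105) and 0.78 for Krt8 (exact p = 0.0274, adjusted 0.0366). It was 0.33 for Krt19 (exact p = 0.453). Spearman's rho was 0.76, 0.86, 0.60 and -0.12 in the same order, with exact permutation p-values of 0.0368, 0.0107, 0.132 and 0.793. Without the 2 normal arrays whose spread lay farthest from the median, r was 0.67 for Krt7, 0.87 for Krt18, 0.35 for Krt8 and -0.76 for Krt19, so the relation of Krt8 rests on those arrays. With the spread as a covariate, the H2 difference was 1.78 for Krt8 (limma adjusted p = 0.0711), 0.85 for Krt18 (0.398) and 0.17 for Krt7 (0.876). Both calls were lost, in a fit that called fewer of all genes. It called 57 genes higher in H2 than in normal cells and 98 lower, against 525 higher without the covariate. Repeating the quantile normalization gave 2.42 for Krt8, still called (adjusted p = 0.018), and 1.71 for Krt18, no longer called (0.127). The difference between 3′ and 5′ control probe sets was also higher on average in H2. Such a difference can reflect the state of the RNA or its amplification, which were not told apart here. For Gapdh it averaged 2.53 ± 0.59 (n = 8) in normal cells and 3.32 ± 0.86 (n = 4) in H2, and for Actb it averaged -0.63 ± 0.62 and -0.0028 ± 0.23. For Gapdh only H2 replicate 7, at 4.58, lay above the normal range of 1.55 to 3.25. The other H2 arrays read 2.66, 2.92 and 3.10, inside that range but each above the normal mean. For Actb, H2 replicates 1 and 5, at 0.077 and 0.25, lay above the highest normal array, at -0.028. H2 replicates 6 and 7, at -0.29 and -0.054, did not. With the Gapdh value as a covariate neither keratin was called (Krt8 2.53, adjusted p = 0.0623; Krt18 1.61, 0.26), and with that of Actb Krt8 was (2.16, 0.041) and Krt18 was not (1.59, 0.232). Spread and the 3′ to 5′ difference are partly bound up with the groups, and their part in the rise was not tested beyond these fits.

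**Figure D3:**
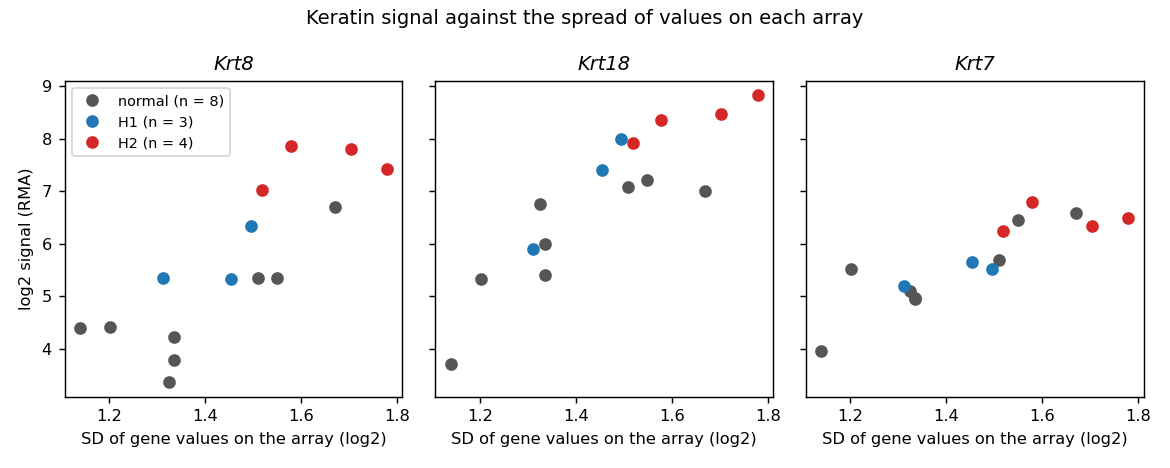
Log2 signal of Krt8, Krt18 and Krt7 against the SD of gene values on the same array, with 1 point per array, coloured by group (normal n = 8, H1 n = 3, H2 n = 4). The H2 arrays lie to the right, between 1.52 and 1.78, where normal arrays reach 1.67, and for Krt8 they lie above all normal arrays, including the normal array at 1.67.

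Signals of epithelial markers also differed between the groups, so the keratins were set against epithelial markers within each array, a comparison chosen after the data were seen. The pan-epithelial list (8 of 9 genes measured) had 3 genes called higher in H2, against 2.89% of all genes: Cdh1 (1.88 ± 0.39, limma adjusted p = 0.02), Spint1 and Spint2, which encode an adhesion protein and a pair of protease inhibitors. Its median was 0.89, with Cldn18 at 0.53 and Cldn7 at -0.04. Of 9 alveolar type 2 genes measured, Abca3, the surfactant lipid transporter, was called in H2 (2.35 ± 0.52, limma adjusted p = 0.0249), and all 9 had positive differences with a median of 2.22, where the median over all genes was -0.04. A summed signal is the log2 of the added linear signals of a list, so its brightest genes weigh most. That of the alveolar type 2 genes ranged from 8.24 (replicate 2) to 14.35 (replicate 3) among normal arrays. It ran from 11.87 to 13.65 in H1 and from 12.73 to 14.36 in H2. Normal replicate 3, with the highest Krt8, Krt7 and Krt19 of the normal arrays, thus also had the highest type 2 signal among them.

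Relative to the mean of the pan-epithelial genes on its own array, Krt8 ran from -2.79 to -0.19 in normal cells and from -0.06 to 0.81 in H2. All 4 H2 arrays lay above all 8 normal arrays, by 1.75 on average (exact two-sided permutation p = 0.00404, the smallest this design can give; adjusted over 32 such tests 0.0646). Krt18 relative to the same genes ran from -1.25 to 0.84 in normal cells and from 1.15 to 1.35 in H2, again without overlap and with the same exact p, by 1.25. After adjustment neither passed. Krt7 relative to these genes differed by -0.0074 between H2 and normal cells (exact permutation p = 1.0, n = 4 and 8), and Krt19 by -0.77 (exact p = 0.0566, adjusted 0.166). Against the alveolar type 2 genes, by contrast, the groups overlapped for Krt8 (H2 0.96 above normal cells, exact permutation p = 0.145) and Krt18 (0.46, exact p = 0.166). For Krt19 the H2 difference on that scale was -1.56 (exact permutation p = 0.0283, adjusted 0.141). A difference on such a scale shows that 2 quantities changed unequally and not which of them changed.

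**Figure D4:**
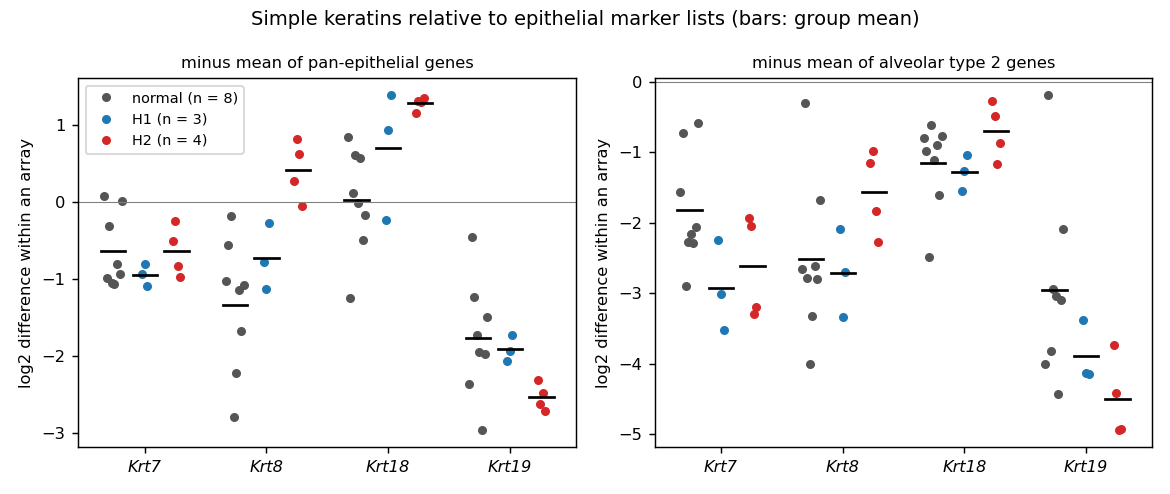
Log2 difference, within an array, between each simple keratin and the mean of the pan-epithelial genes (left) or of the alveolar type 2 genes (right); points are arrays, black bars group means, for 8 normal, 3 H1 and 4 H2 arrays. On the left Krt8 and Krt18 in H2 lie above every normal array, and on the right they overlap the normal arrays.

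Partner chains were then compared within an array, which removes a shift of the whole array but not a difference in its spread of values. Krt8 minus Krt18 averaged -1.36 ± 1.24 for normal arrays (n = 8), -1.42 ± 0.78 for H1 (n = 3) and -0.86 ± 0.39 for H2 (n = 4). The H2 difference from normal cells was 0.50 (exact two-sided permutation p = 0.461, adjusted over 12 tests 0.921). For Krt7 minus Krt19 it was 0.76 (exact permutation p = 0.121, adjusted 0.727), and for Krt5 minus Krt14 0.06 (exact p = 0.881). Between H1 and H2, Krt7 minus Krt19 averaged 0.96 ± 0.29 (n = 3) and 1.89 ± 0.33 (n = 4) without overlap, at the smallest exact permutation p this comparison allows, 0.0571 (adjusted 0.686). None of the 12 comparisons passed. Those between H1 and H2 could not pass, since 0.0571 is their smallest exact permutation p. For H1 against normal cells the smallest is 0.0121 before adjustment. Across the 8 normal arrays the highest correlations among the 4 simple keratins were those of Krt7 with Krt18 (Pearson's r = 0.83, exact permutation p = 0.013, adjusted over 6 pairs 0.078; Spearman's rho = 0.76, exact p = 0.0368, adjusted 0.11) and of Krt7 with Krt8 (r = 0.73, exact p = 0.0345, adjusted 0.104; rho = 0.76, exact p = 0.0368). Without the 2 arrays farthest from the median of Krt7 these were 0.60 and 0.82. The principal pair, Krt8 and Krt18, had r = 0.41 (exact permutation p = 0.299; rho = 0.45, exact p = 0.267). None of the 6 pairs passed after adjustment, and the arrays share the spread described above.

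As a description over all 15 arrays, the genes whose pattern was most like that of Krt8 were Eaf1 (Pearson's r = 0.94), Sulf2 (0.93), Btg1 (0.93), Acsl4 (0.93) and Tcf12 (0.92), with Spearman's rho between 0.87 and 0.94. For Krt18 they were Cox7a2l (0.97), Rpn1 (0.96), Rbm17 (0.96), Rps20 (0.95) and Sec63 (0.95), with rho between 0.94 and 0.97. These 10 genes themselves followed the array spread, with r between 0.78 and 0.93, against 0.82 for Krt8 and 0.89 for Krt18.

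The rest of the keratin family gave a background for these values. Of 42 other keratins measured, most of them keratins of skin, hair and stratified epithelium, 20 had a mean below 3.99. In H2 against normal cells 1 of them was called higher (2.89% of all genes were), 0 were called lower, and the median difference was -0.23. The 1 was Krt23, a type I keratin, which rose by 1.79 ± 0.42 from 3.86 ± 0.83 (n = 8) to 5.65 ± 0.65 (n = 4; limma adjusted p = 0.0331). Its normal level lay near the background, so the size of its rise is not well determined, and with array spread as a covariate it differed by 0.85 (adjusted p = 0.353). Krt80, Krt79 and Krt1, which had the next lowest p-values over all lesions, differed there by -0.57, -0.46 and -0.33 and were not called. Krt13, singled out after its values were seen because its signal differed widely among arrays, was at 8.13 ± 1.77 for normal arrays (n = 8), 9.18 ± 0.02 for H1 (n = 3) and 6.59 ± 1.20 for H2 (n = 4). Its H2 difference of -1.54 ± 0.80 was not called (limma adjusted p = 0.28).

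**Figure D5:**
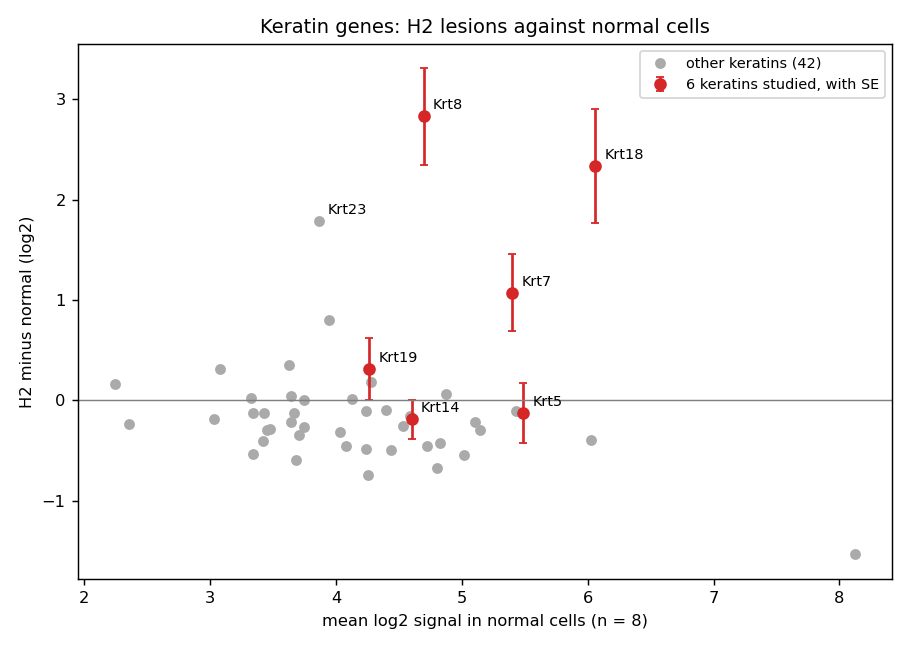
H2 minus normal difference of each keratin gene (log2) against its mean log2 signal in normal cells (n = 8), for the 6 keratins studied, with SE, and 42 others in grey. Krt8 and Krt18 stand at 2.83 and 2.33 and Krt23 at 1.79, most other keratins lie close to 0 or below it, and the point at the lower right is Krt13.

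Keratins are tied to the cell surface by desmosomes and plakin linkers. Of 12 such genes measured, 1 was called higher in H2 (2.89% of all genes were) and 0 lower, with a median of 0.09. Desmoplakin (Dsp), the linker that binds keratin filaments to the desmosome, rose by 1.41 ± 0.35 from 7.86 to 9.27 (limma adjusted p = 0.0373). Its call was lost in all 4 alternatives run on it: with array spread (0.95, adjusted p = 0.32), Actb (1.03, 0.246) or Gapdh (1.20, 0.23) as a covariate, and when normal replicates 2 and 8, the arrays of narrowest spread, were left out (1.28, 0.0956). The other probe sets of Dsp differed in H2 by 0.73 (adjusted p = 0.136 by limma over all probe sets) and -0.15 (0.743) and were not called. Dsc2, Pkp2 and Jup differed by -0.47, 0.47 and 0.39 over all lesions and were not called. Of 14 other intermediate filament genes, among them the vimentin, desmin, neurofilament and lamin genes, 0 were called in any comparison by limma, and in H2 3 were lower at an unadjusted p under 0.05, a share equal to the 21.4% of all genes at that mark. The median of these 14 in H2 was -0.09. Nestin (Nes) had the lowest p over all lesions, at -0.51 ± 0.16 (limma adjusted p = 0.19).

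Regulators of epithelial transcription and splicing were counted in the same way. Of 12 measured, 4 were called higher in H2, where 2.89% of all genes were, and 0 lower, with a median of 1.06. Grhl2, a grainyhead factor that maintains epithelial gene expression, rose by 1.94 ± 0.36 from 5.33 to 7.27 (limma adjusted p = 0.0112). Elf5 and Ehf, epithelial ETS factors, rose by 1.82 ± 0.29 (adjusted p = 0.00586) and 1.51 ± 0.38 (0.0422), and Cebpa, a factor needed for alveolar type 2 differentiation, by 2.23 ± 0.57 (0.0429). Trp63, which defines basal cells, was not called in H2 (-0.87 ± 0.29, adjusted p = 0.0974). Other probe sets of these genes did not all move: 1 other of Ehf differed by 2.68 in H2 and the remaining 2 by -0.0071 and -0.20, the other of Elf5 by 0.22, and the other 3 of Grhl2 by -0.06, -0.07 and -0.38. With array spread as a covariate 1 of the 4, Elf5, was called (1.76, limma adjusted p = 0.0357), and with that of Gapdh 0 were, Elf5 being at 1.59 (0.0536) and Grhl2 at 1.98 (0.062). Elf5 alone was called with the Actb covariate (1.94, adjusted p = 0.0209), and Elf5 and Grhl2 without the 2 normal arrays of narrowest spread (0.0152 and 0.0239).

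Of 14 genes known from the Krt8-high transitional state of alveolar cells, 12 were measured and 0 were called in any comparison by limma, while 2 were higher and 1 lower in H2 at an unadjusted p under 0.05, near the 21.4% of all genes. The stress protein Nupr1 differed by 1.72 ± 0.49 in H2 (limma adjusted p = 0.0665) and by 1.79 ± 0.54 in H1 (0.997). Cldn4, a tight junction claudin of that state, was below 3.99 in every group, at a mean of 2.94 for normal, 2.71 for H1 and 2.54 for H2 arrays. Itgb6, an integrin chain, differed by -0.40 in H2, and the matrix protein gene Fn1 by 1.36 (limma adjusted p = 0.0685).

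Markers of other cells were followed beside the keratins. The sum of the alveolar type 1 genes, of a keratin-bearing cell, ran from 7.76 to 12.94 in normal cells, 9.57 to 10.77 in H1 and 10.97 to 11.46 in H2. Of the 9, 0 were called in H2 by limma and 2 had an unadjusted p under 0.05, Aqp5 at 1.79 and Rtkn2 at -1.58. Of the mesothelial list, Msln averaged 2.95 on normal, 2.94 on H1 and 3.31 on H2 arrays, 0 of 7 genes were called in H2 by limma, and the summed level ran from 6.79 to 7.44 in normal cells, 6.89 to 7.45 in H1 and 6.66 to 7.11 in H2. The club cell markers Scgb1a1 and Scgb3a2 averaged between 3.20 and 3.56 in each group, although 2 of 6 genes of that list, Cyp2f2 and Aldh1a7, were called higher in H2 (2.89% of all genes were). The ciliated cell factor Foxj1 averaged between 2.12 and 2.54, and of the 7 ciliated, 7 basal and 4 neuroendocrine genes measured 0 were called by limma. The endothelial sum ran from 7.93 to 8.63 in H2 and 7.96 to 8.69 in H1, inside the range of 7.80 to 10.81 in normal cells. Of its 8 genes 0 were called by limma in H2 and 4 were lower at an unadjusted p under 0.05, a mark that 21.4% of all genes passed in either direction, while Pecam1 differed by 0.13. Of 7 fibroblast genes 1, Col1a2, was called higher in H2 (1.57 ± 0.37, limma adjusted p = 0.0341), while Tcf21 differed by -1.04, Mfap4 by -0.61 and Pdgfra by -0.52. The summed fibroblast level ran from 9.75 to 10.43 in H2 and from 7.40 to 9.98 in normal cells. The macrophage sum averaged 9.38 ± 0.71 (n = 4) in H2 and 8.04 ± 0.92 (n = 8) in normal cells. Of its 5 genes 0 were called by limma and 2 had an unadjusted p under 0.05, both higher. The median difference of these 5 genes in H2 was 0.01, and 3 of them were positive, so the list did not rise as a whole. The part of a changed mixture of cells in the keratin values was not tested.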

How the data were processed

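Gene expression was measured on 15 Affymetrix arrays. The authors deposited log2 values for each probe set, made with the affy package and RMA (background correction, quantile normalization and probe summary), per the submitters' processing notes, which give no versions. RNA came from laser-captured cells and was amplified before labelling, per the labels' protocols. Of 45101 probe sets, 64 controls were left out; 34945 carried 1 gene symbol in the platform annotation, 932 several and 9160 none. The brightest probe set stood for a gene. Groups came from the source names. Differences were fitted with limma (version 3.58.1, R 4.3.3) on the deposited values, with 2 groups for all lesions and 3 groups otherwise, adjusted by Benjamini-Hochberg; the fit was tested on simulated data. Probe sets of the members were also fitted with every non-control probe set. Within-array ratios and correlations had exact permutation tests (SciPy 1.17.1). Precision is limited by how many arrays each group has. The keratins, gene lists and tests were chosen with earlier results of these data known. Genes named outside the 6 keratins were mainly those called in any comparison or, failing that, up to 4 with the lowest p over all lesions in a list. The 5 most like each called keratin and leading markers of cell types were also named, though some leading markers were not printed. Genes named outside this rule include Krt13, Cldn7, Cldn18, Tcf21, Mfap4 and Pdgfra. The labels do not say that replicate numbers pair the arrays, so they were not taken as pairs. Checked as pairs, 4 of 7 same-numbered pairs had deviations correlating above 0.1, and 1 of 7 lesions correlated best with its own number. Alternatives were other scaling, probe set choices, priors, weights, covariates, blocks and left-out arrays.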

Additional observations from a re-analysis of the deposited data

Results flagged for a closer look

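Among 26 sets of 4 or 8 arrays checked for an array far from the rest of its group, 5 held one. The mark was the 95% critical value of the Dixon gap test, which chance passes in about 1 in 20 groups. Of the 5, 3 come from the same array, 1 of them being the difference of the other two. Normal replicate 3 stood apart for Krt19, at 5.65. Normal replicate 2 stood apart for Krt5, at 4.18, for the brightest probe set of Krt14, at 5.40, and so for Krt5 minus Krt14, at -1.22; this array also had the narrowest spread of values, 1.14. H2 replicate 1 was low for the Krt14 probe set 1460347_at, at 2.97, where all groups lay near the background.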

How the results depend on the processing

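Krt8 was called in H2 against normal cells under 11 of 14 other settings, left-out arrays aside. The count of keratins called in H2, 2 as reported, was 1 with repeated quantile normalization and with the Actb covariate. It was 0 with array spread, with the Gapdh covariate and with the replicate block, and 3 with array weights, where Krt7 passed. These settings also change how many of all genes are called, which is given here only for array spread. With it 57 genes were called higher in H2 and 98 lower, against 525 higher as reported. The counts are therefore no result about keratins alone. Over all lesions the count went from 0 to 1 with array weights. With 1 array left out the counts ran from 1 to 3 in H2, from 0 to 2 over all lesions, and stayed at 0 in H1 and in H1 against H2. Over probe sets and comparisons, 4 calls as reported became 0 with array spread and 0 with the replicate block, and ran from 1 to 7 with 1 array left out. With the replicate number as a block Krt8 differed in H2 by 2.85 (limma adjusted p = 0.108) and Krt18 by 1.97 (0.12); the numbers are not known to pair the arrays, and 1 of 7 lesions correlated best with its own number.

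Signs changed only for values that were never called. With array spread these were Krt14 over all lesions (0.0046), in H2 (0.13) and in H1 against H2 (-0.20), Krt7 in H1 (-0.068), Krt19 in H2 (-0.054) and in H1 against H2 (0.23), and Krt5 in H1 against H2 (0.091). With the block they were Krt19 in H1 (-0.36), Krt5 (0.11) and Krt14 (-0.24) in H1 against H2. Krt14 in H1 against H2 was -0.12 with Actb and -0.11 with Gapdh, and Krt7 in H1 was -0.16 without the 2 normal arrays of narrowest spread. Krt8 minus Krt18 in H1 was 0.032 with the mean of probe sets, and Krt5 minus Krt14 in H2 was -0.053 with repeated quantile normalization. Without the 2 farthest arrays r was -0.32 for Krt7 with Krt19 and -0.51 for Krt8 with Krt19. With 1 array left out, the ranges that crossed 0 were -0.15 to 0.23 (Krt7 in H1) and -0.28 to 0.13 (Krt19 in H1 against H2). For Krt8 minus Krt18 they were -0.034 to 0.55 over all lesions and -0.50 to 0.26 in H1, for Krt7 minus Krt19 -0.41 to 0.015 in H1, and for Krt5 minus Krt14 -0.38 to 0.064 over all lesions and -0.24 to 0.21 in H2. The causes were not tested.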
